A study of Caenorhabditis elegans with 3 samples.

Results

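The p38 and JNK stress kinases with SKN-1 form a group of 10 genes, found in the deposited count table by their gene names out of 46739 genes, of which 20362 are protein coding. Their transcripts were measured in germlines dissected from wild-type N2 Caenorhabditis elegans, the standard laboratory strain, in 3 libraries that form 1 group. No mutation, treatment, age or second condition is given for these animals. The labels number the germlines 1 to 3 and name no separate animals or cultures. The spread between libraries may therefore be technical. As all libraries belong to 1 group, nothing can be tested between conditions, and the levels of the genes are described with their spread.

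Stress kinase cascades pass a signal along tiers: a MAP3K phosphorylates a MAP2K, which phosphorylates a MAP kinase, which acts on transcription factors and other proteins. In the worm, NSY-1, SEK-1 and PMK-1 are the tiers of a p38 cascade known for innate immunity in the intestine, with ATF-7 as a transcription factor downstream, and PMK-1 also phosphorylates SKN-1. SKN-1 is a relative of the mammalian NRF factors that directs the oxidative stress response, and its maternal product specifies a founder cell of the early embryo. WDR-23 is a substrate adaptor that directs SKN-1 to degradation. MLK-1, MEK-1 and KGB-1 are the tiers of a JNK-like cascade that acts in heavy metal stress and axon regeneration, and JNK-1 is a JNK kinase known mainly from neurons. KGB-1 binds the germ granule helicase GLH-1 and is needed for normal germline development.

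The libraries held 14523486, 15566299 and 16656171 counts in replicates 1, 2 and 3, so that 1 CPM, a count per 1000000 counts of the library, stood for 14.5 to 16.7 reads. A count of 0 allows a level of up to 0.207, 0.193 and 0.18 CPM, taken as 3 counts of the total. These limits and all intervals below cover counting error only, because no molecular identifiers were used to tell PCR copies of a molecule apart. All 10 germline markers looked up reached at least 1 CPM in every library, against 40.2% of protein-coding genes. The median of these markers was 460.6 CPM. RNA of sperm and of somatic cells was present as well. The summed CPM of 10 sperm markers was 4106, 476.9 and 1213, that of 10 intestine markers 298.6, 1078 and 552.6, and that of 10 somatic gonad markers 898.6, 905.9 and 963.4 in replicates 1, 2 and 3. The libraries thus differed 8.61-fold in sperm and 6.61-fold in epidermis markers. They differed 3.61-fold in intestine (2.56-fold without the yolk genes vit-2 and vit-6) and 1.85-fold in muscle markers. Of 5 coelomocyte markers, 1 reached 1 CPM in every library, against 40.2% of protein-coding genes. The somatic gonad sum differed 1.07-fold, but its genes moved in different directions. Of the 10 markers, 1, 5 and 4 were highest in replicates 1, 2 and 3. For example, fln-1 had 459.9, 398.2 and 553.5 CPM, while inx-8 had 230.5, 294.6 and 172.4 CPM. In such bulk RNA, fewer cells of a type and less RNA per cell cannot be told apart.

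Transcripts of 9 of the 10 genes reached at least 1 CPM in each library, the level called detected here, against 40.2% of all protein-coding genes, and jnk-1 did not. At least 10 CPM in every library was found for 5 of the 10 genes, against 26.6% of protein-coding genes. With minima of 0.5 and 5 CPM, 9 and 7 of the 10 genes passed, against 45% and 30.4% of protein-coding genes. The median of the 10 mean levels was 15.2 CPM, against 0.612 CPM over protein-coding genes and 32 CPM over the 8194 detected ones. The transcription factor genes skn-1 and atf-7, the inhibitor gene wdr-23 and the MAP2K gene mek-1 were abundant, while the other kinase genes lay far below them, in CPM as well as per length.

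**Figure D1:**
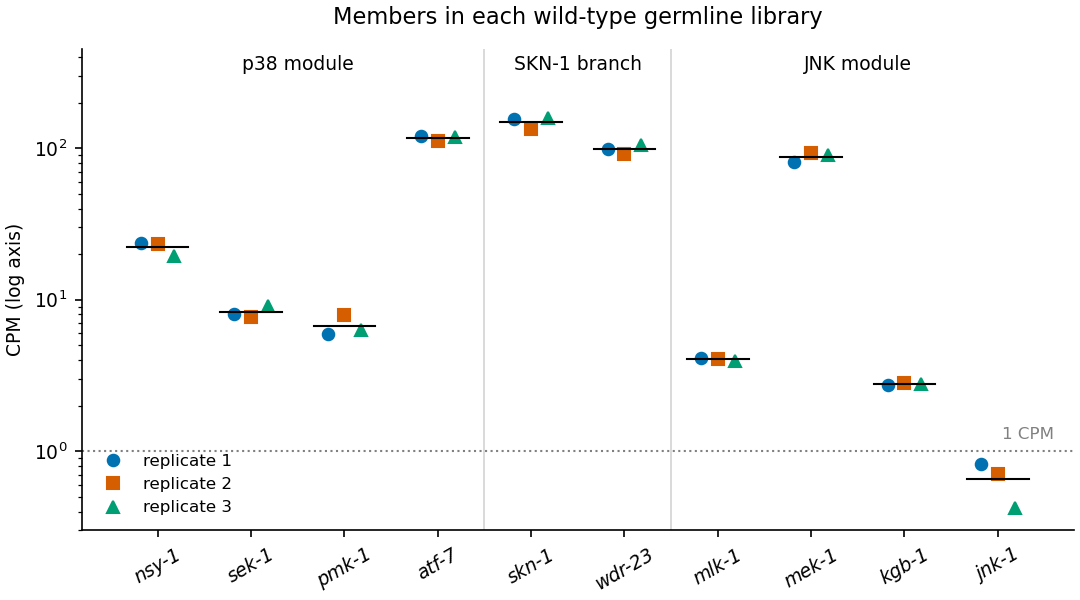
Counts per 1000000 (CPM, log axis) of the 10 genes in each of the 3 wild-type germline libraries, with symbols for replicates and a bar at the mean. The genes atf-7, skn-1, wdr-23 and mek-1 sit between 81.5 and 159 CPM in every library, and jnk-1 alone lies under the dotted line at 1 CPM.

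The p38 cascade begins with nsy-1 (WBGene00003822, chromosome II, 5022757 to 5029999, plus strand), which encodes a MAP3K related to mammalian ASK1. It had 23.7, 23.4 and 19.3 CPM in replicates 1, 2 and 3, a mean of 22.2 ± 2.45 CPM (SD, n = 3). Replicate 3 was the lowest, and the libraries differed by a factor of 1.23. Its kinase substrate is encoded by the X-linked sek-1 (WBGene00004758, chromosome X, 7816734 to 7821036, plus strand). This MAP2K gene had 8.06, 7.71 and 9.13 CPM (8.30 ± 0.738, SD, n = 3), a spread about as large as counting error alone gives (a ratio of 1.03).

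The p38 kinase gene pmk-1 (WBGene00004055, chromosome IV, 8148794 to 8151266, plus strand) had 315 reads in all, or 5.92, 7.97 and 6.30 CPM (6.73 ± 1.09, SD, n = 3). Replicate 2 was the highest, by a factor of 1.35 over replicate 1, and the spread was 1.64 times that of counting error. The sum of intestine markers was highest in replicate 2 as well, mostly through vit-2 and vit-6, the yolk protein genes. Without these genes, a sum added after seeing the data, it was 73.9, 77.9 and 30.4 CPM in replicates 1, 2 and 3, and 4 of the 8 other markers were highest in replicate 1 and 3 in replicate 2. Of the intestine list, 6 of 10 genes were detected, against 40.2% of protein-coding genes. The genes elt-2 and ges-1, which define intestine, had means of 0.106 and 0.345 CPM. The part of intestinal RNA in the level of pmk-1 was not tested.

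At the end of the cascade, atf-7 (WBGene00000223, chromosome III, 4491627 to 4499045, minus strand) stood above the 3 kinase genes in every library. This gene of a bZIP transcription factor had 120, 111.1 and 118.1 CPM (116.4 ± 4.67, SD, n = 3). The libraries differed by a factor of 1.08 only, which was 1.69 times the spread that counting error gives.

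In the SKN-1 branch, skn-1 (WBGene00004804, chromosome IV, 5651039 to 5660384, minus strand) had 156.7, 133.2 and 159 CPM (149.6 ± 14.3, SD, n = 3), the highest of the 10 genes in CPM, which are not corrected for length. Replicate 2 was the lowest, by a factor of 1.19, and the spread was 4.62 times that of counting error, the largest such ratio among the 10 genes. The annotation gives skn-1 4 transcripts with 4 coding lengths, the longest of 623 codons. Counts per gene do not tell these transcripts apart, so the level is that of the gene and not of a maternal or a stress-related form. Its inhibitor gene wdr-23 (WBGene00008419, chromosome I, 7595776 to 7602221, plus strand) had 99.1, 91.7 and 105 CPM (98.6 ± 6.65, SD, n = 3). It too was lowest in replicate 2.

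The JNK-like cascade was uneven along its tiers. Its MAP3K gene mlk-1 (WBGene00003374, chromosome V, 5056378 to 5064811, minus strand) had 60, 63 and 66 reads, or 4.13, 4.05 and 3.96 CPM (4.05 ± 0.0844, SD, n = 3). This spread was less than counting error gives (a ratio of 0.165). The MAP2K gene mek-1 (WBGene00003185, chromosome X, 7479248 to 7481005, plus strand) had 81.5, 92.4 and 90.4 CPM (88.1 ± 5.77, SD, n = 3). All 3 libraries of mek-1 lay above all 3 of mlk-1.

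The JNK-like kinase gene kgb-1 (WBGene00002187, chromosome IV, 405621 to 410035, minus strand) had only 40, 44 and 46 reads, or 2.75, 2.83 and 2.76 CPM (2.78 ± 0.0398, SD, n = 3). The libraries differed by less than counting error gives (a ratio of 0.0939), so the exact Poisson interval is the wider guide, at 1.97 to 3.75 CPM in replicate 1. The related kgb-2 had 0, 0.0642 and 0.24 CPM, at or near the limit of detection. The kgb genes are close paralogues, and how reads that match both were counted is not given in the sources used here, so both levels are uncertain.

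The JNK gene jnk-1 (WBGene00002178, chromosome IV, 6957641 to 6963719, plus strand) was the lowest of the 10, with 12, 11 and 7 reads, or 0.826, 0.707 and 0.42 CPM (0.651 ± 0.209, SD, n = 3). Its exact 95% Poisson intervals were 0.427 to 1.44, 0.353 to 1.26 and 0.169 to 0.866 CPM in replicates 1, 2 and 3, which overlap. The gene of its activating MAP2K, jkk-1, had 1 read in replicate 1 and 0 in the others. Of 10 neuron markers, 3 were detected, against 40.2% of protein-coding genes. The summed CPM of the 10 markers was 45.1, 50.2 and 45.6. The synaptic vesicle gene rab-3 had 0.62, 0.707 and 0.24 CPM, and snt-1 was at 0. Most of the sum came from snb-1, at 33.6, 36.8 and 35.5 CPM. As the intervals of jnk-1 overlap, its order over the libraries cannot be compared with that of the sum. The part of neuronal RNA in the reads of jnk-1 was not tested.

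Levels of different genes were compared per length, as CPM divided by the kb of exon in the annotation. On this scale mek-1 came first at 54.9 ± 3.60 CPM per kb, followed by skn-1 at 50.5 ± 4.83, atf-7 at 42.9 ± 1.72 and wdr-23 at 33.1 ± 2.23 CPM per kb (SD, n = 3 each). A gap of 7.55-fold separated wdr-23 from the next gene. Below it came nsy-1 at 4.38 ± 0.484, sek-1 at 4.04 ± 0.36 and pmk-1 at 4.03 ± 0.65 CPM per kb, then kgb-1 at 1.71 ± 0.0245, mlk-1 at 1.12 ± 0.0233 and jnk-1 at 0.274 ± 0.0877 CPM per kb. The 10 genes therefore fell into 4 above 30 and 6 under 5 CPM per kb, with none between. These limits were not planned and lie within the gap below wdr-23, so the empty middle restates that gap.

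Of the 9 pairs of neighbours in this order, 6 had ranges over the 3 libraries that did not overlap. The pair of mek-1 and skn-1 overlapped, with mek-1 higher in 2 of 3 libraries (1 of 3 with the longest transcript as length). So did nsy-1 and sek-1, and sek-1 and pmk-1, so that the 3 kinase genes of the p38 cascade could not be ranked. The separation of skn-1 from atf-7 was narrow, as the lowest library of skn-1 had 45 and the highest of atf-7 44.2 CPM per kb. For the low pair of kgb-1 and mlk-1, the exact 95% Poisson intervals of the pooled counts were 1.43 to 2.03 and 0.964 to 1.29 CPM per kb and did not overlap. A paired exact sign-flip test on 3 libraries cannot go below p = 0.25, so none was run.

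**Figure D2:**
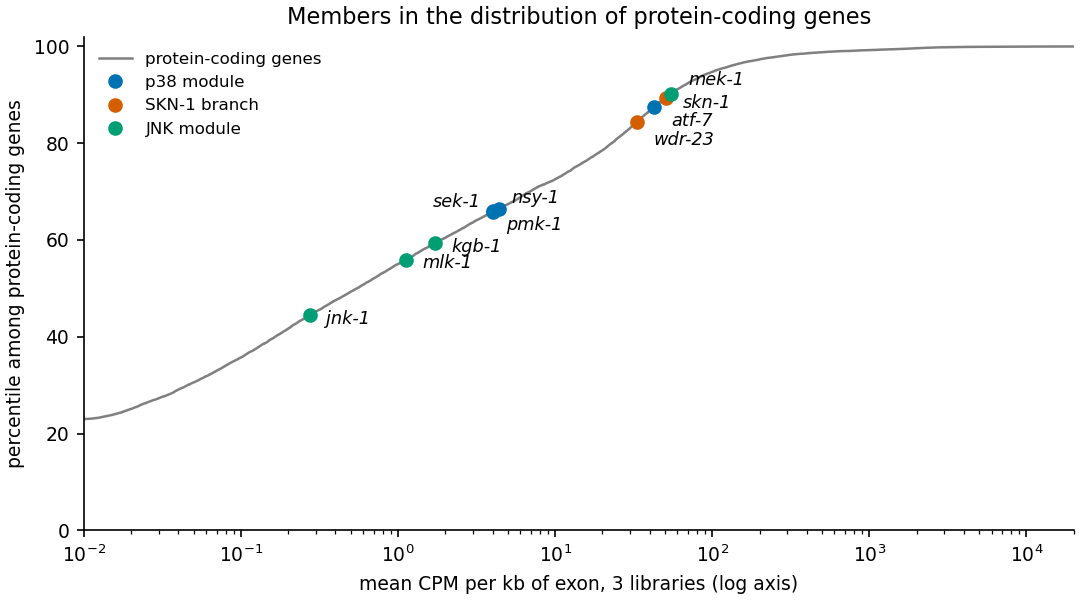
Mean level per length (CPM per kb of exon over 3 libraries, log axis) of the 10 genes against their percentile among the 20116 protein-coding genes with an exon length, whose curve is grey. The upper 4 genes lie at percentiles 84.4 to 90.3 and the 3 kinase genes of the p38 cascade at 65.9 to 66.5, while jnk-1 lies at 44.5.

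Among protein-coding genes, mek-1 stood at percentile 90.3 of the level per kb and skn-1 at 89.4. The genes nsy-1, sek-1 and pmk-1 stood at 66.5, 65.9 and 65.9, above the median gene of the table at 0.548 CPM per kb and under the median detected gene at 22.2 CPM per kb. Within the p38 cascade the kinase tiers were thus close to each other per length and could not be ranked. The ratio of nsy-1 to sek-1 was 1.10 ± 0.205 and that of sek-1 to pmk-1 1.02 ± 0.208, while atf-7 stood at 12.5, 8.59 and 11.5 times pmk-1 in replicates 1, 2 and 3 (SD, n = 3, each ratio taken per kb within a library).

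In the JNK-like cascade, mek-1 stood at 44.5, 51.5 and 51.4 times mlk-1 and at 30, 33.1 and 33.1 times kgb-1 per kb in replicates 1, 2 and 3. The ratio of kgb-1 to mlk-1 was 1.53 ± 0.0399 (SD, n = 3). Both genes varied less between libraries than counting error gives (ratios of 0.0939 and 0.165), so this SD understates the uncertainty. In each library mek-1, the middle tier, thus exceeded the tiers on either side. The target skn-1 and its inhibitor wdr-23 were close by comparison, at a ratio of 1.59, 1.46 and 1.53 per kb in the 3 libraries.

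These genes were also set beside the other kinases of their tiers. Of 9 MAP2K genes, mek-1 took 79, 81.2 and 80.1% of the summed level per kb in replicates 1, 2 and 3, and sek-1 took 5.90 ± 0.542% (SD, n = 3). The only other gene of this tier above sek-1 was sek-3 at 6.88 ± 0.404 CPM per kb, with mek-1 at 8.0 ± 0.781 times its level. The gene mkk-4, of the MAP2K in the DLK-1 pathway, had 1.42 ± 0.333 and the ERK kinase gene mek-2 1.17 ± 0.263 CPM per kb. The genes sek-4 and sek-5 had no count in any library, and sek-6 and jkk-1 had means of 0.0896 and 0.0061 CPM per kb.

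In the MAP3K tier, nsy-1 and mlk-1 ranked 4 and 6 of 7 genes and together took 4.95 ± 0.615% of the summed level per kb. The RAF gene lin-45, which starts the ERK cascade, had 47.8 ± 3.45 CPM per kb, mom-4, a relative of mammalian TAK1, had 30.7 ± 1.78, and mtk-1, a relative of mammalian MEKK4, had 24.7 ± 0.851 (SD, n = 3 each). The gene mtk-1 thus stood at 5.70 ± 0.831 times nsy-1. The neuronal MAP3K gene dlk-1 had 2.24 ± 0.594 and zak-1 0.441 ± 0.0829 CPM per kb.

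In the MAP kinase tier, pmk-1, kgb-1 and jnk-1 ranked 3, 6 and 8 of 10 genes and together took 12.5 ± 1.10% of the summed level per kb (SD, n = 3). The ERK gene mpk-1, which drives meiotic progression and oocyte growth, led with 23 ± 1.25 CPM per kb, or 5.80 ± 0.91 times pmk-1. The Nemo-like kinase gene lit-1 followed with 14.1 ± 0.0662 CPM per kb. The genes mpk-2 and mapk-15 had 0.582 ± 0.201 and 0.195 ± 0.0467 CPM per kb, and kgb-2 was last at 0.0826 ± 0.101. So pmk-1, kgb-1 and jnk-1 made up a small part of their tier, whereas mek-1 made up most of its own.

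**Figure D3:**
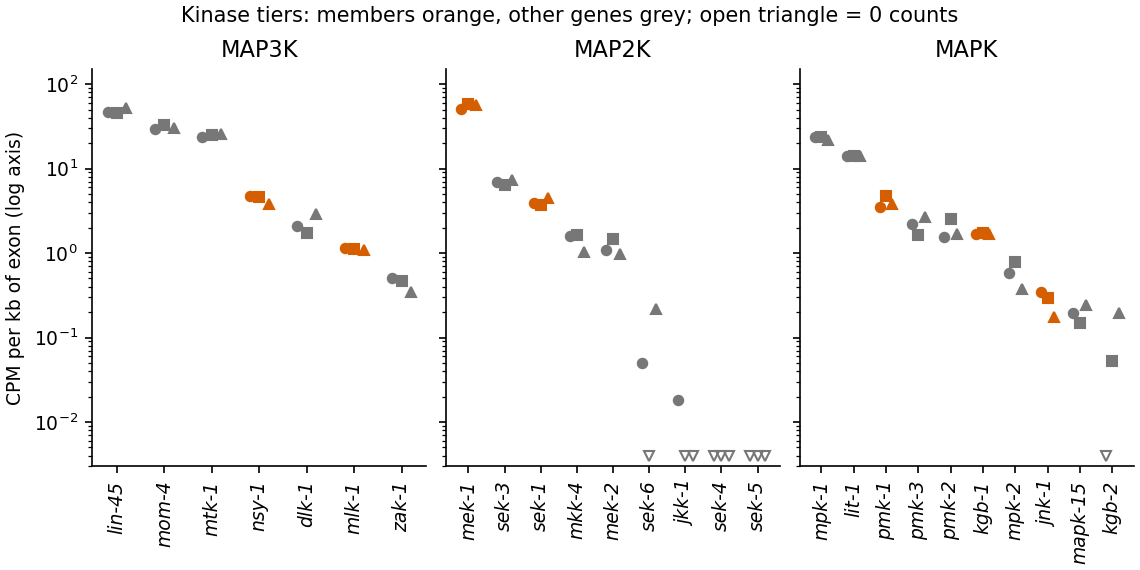
Level per length (CPM per kb of exon, log axis) of each gene of the MAP3K, MAP2K and MAPK tiers in the 3 libraries, as circles for replicate 1, squares for replicate 2 and triangles for replicate 3. Orange marks the stress kinase genes of the 10, grey the others, and open triangles a count of 0. The gene mek-1 leads its tier by 8-fold over the next gene, while the orange genes of the other tiers lie below lin-45, mom-4, mtk-1, mpk-1 and lit-1.

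The p38 kinases of the worm are encoded in a row on chromosome IV as pmk-3, pmk-2 and pmk-1, known to be transcribed as an operon, with gaps of 345 and 145 bp between the annotated genes. Per kb, pmk-1 took 48.4, 53.2 and 46.6% of their summed level in replicates 1, 2 and 3. The gene pmk-2, which acts with pmk-1 in the nervous system, took 21.4, 28.4 and 20.8%, and pmk-3, the p38 of the DLK-1 pathway in axons, took 30.2, 18.4 and 32.6%. The share of pmk-1 was the highest in each library. The order of pmk-2 and pmk-3 changed between libraries, so these did not differ beyond their spread.

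The genes sek-1 and mek-1 are X-linked, as are 8 of the 9 MAP2K genes, and none of the MAP3K and MAPK tiers is. The X chromosome is known to be largely silent in early germ cells and to be transcribed in oocytes. In CPM, which are not corrected for length, mek-1 ranked 51 of 2742 X-linked protein-coding genes and stood against a median of 8.96 CPM for the detected X-linked genes. At 8.30 CPM, sek-1 lay near that median. Of the 8 X-linked MAP2K genes, 4 were detected, against 32.8% of X-linked protein-coding genes.

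Other genes of the p38 module were mostly detected at low to middling levels. Besides the members, 14 of 18 reached the detection level, against 40.2% of protein-coding genes. With the members, the count was 18 of 22, and 8 of 22 at 10 CPM, against 26.6%. The highest by CPM were dkf-2, which encodes a protein kinase D upstream of PMK-1 in intestinal immunity, at 42.9 ± 3.94 CPM, and mak-1, which encodes a MAPKAP kinase, at 31.4 ± 5.01 CPM. The adaptor gene tir-1, which acts directly on NSY-1, had 5.23 ± 0.7 CPM, and the phosphatase gene vhp-1, which restrains PMK-1 and KGB-1, had 7.41 ± 0.674 CPM. Not detected were cebp-1, fshr-1, tpa-1 and gpa-12, the lowest being gpa-12 at 0.275, 0.321 and 0 CPM. Over the 22 genes with the members included, the median was 2.67 CPM per kb, against 0.548 CPM per kb over protein-coding genes.

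Of 13 other genes of the JNK module, 11 were detected, against 40.2% of protein-coding genes. With the members, the count was 14 of 17, and 9 and 7 of 17 at 5 and 10 CPM, against 30.4% and 26.6%. The highest by CPM were mtk-1 at 110.9 ± 3.82 CPM, mom-4 at 65.1 ± 3.78 and the scaffold gene unc-16 at 64.7 ± 5.42 CPM (SD, n = 3). Per length, unc-16 had 10.4 CPM per kb and the other scaffold gene, jip-1, 0.544 CPM per kb. The AP-1 genes fos-1 and jun-1, whose mammalian relatives are JNK targets, had 2.98 ± 0.198 and 17.6 ± 4.36 CPM. The 2 not detected were jkk-1 and the growth factor gene svh-1, at 0.023 and 0.0889 CPM.

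Genes that control SKN-1 were abundant. Besides wdr-23, 15 of 16 were detected, against 40.2% of protein-coding genes, and the median of the 17 was 40.5 CPM per kb, against 0.548 over protein-coding genes. The partners of WDR-23 in its ubiquitin ligase, ddb-1 and cul-4, had 66.2 ± 6.15 and 21.3 ± 2.59 CPM per kb, which lie on either side of wdr-23. The F-box gene xrep-4, which is needed to activate SKN-1, had 61.7 ± 6.36 CPM per kb. The highest by CPM were the peroxiredoxin gene prdx-2 at 456.3 ± 58.2, ddb-1 at 254.2 ± 23.6 and sel-11 at 159.1 ± 10.1 CPM. The last is an ER ubiquitin ligase gene of the pathway that matures the proteasome-regulating form SKN-1A, together with png-1 at 21.4 ± 1.82 and ddi-1 at 98.8 ± 8.39 CPM. The kinase gene sgk-1 was not detected, at 0.716 ± 0.265 CPM. The genes akt-1 and akt-2, of related kinases that act on SKN-1, had 109.9 ± 5.65 and 2.40 ± 1.02 CPM.

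Known targets of SKN-1 in oxidative stress ranged widely, and 10 of 17 were detected, against 40.2% of protein-coding genes. At 5 and 10 CPM the count was 6 and 4 of 17, against 30.4% and 26.6%. The glutathione transferase gene gst-7 had 1155, 1555 and 1028 CPM, prdx-2 stood as above, and the glutathione reductase gene gsr-1 had 158.3 ± 13.5 CPM. The reporter genes most used for SKN-1 activity were gcs-1, of glutathione synthesis, at 60.1 ± 8.17 CPM and gst-4 at 5.65, 6.75 and 9.97 CPM. Per length they had 25.7 and 10.2 CPM per kb, below gsr-1 at 99.8 CPM per kb. No count was found for gst-14, nor for med-1 and med-2, the embryonic targets of maternal SKN-1. Since med-1 and med-2 are nearly the same in sequence, their reads may have been left out of the counting. For the list the median was 3.73 CPM per kb.

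Immune targets of PMK-1 and ATF-7, most of them intestinal or epidermal genes, were detected in 5 of 15 cases, against 40.2% of protein-coding genes. The count depended on the threshold. It was 8 of 15 at 0.5 CPM, against 45% of protein-coding genes, and 0 of 15 at 5 CPM, against 30.4%. At 1 CPM in 2 of 3 libraries it was also 8 of 15, a rule for which no share of protein-coding genes is given. The highest by CPM were sysm-1 at 4.54, 41.9 and 6.60 CPM, lys-2, a lysozyme gene, at 5.16, 30.6 and 2.22 CPM, and irg-4 at 3.24, 8.22 and 0.72 CPM in replicates 1, 2 and 3. All 3 were highest in replicate 2, whose values raise the mean CPM by which they were picked. The summed list was 30.6, 105 and 19.3 CPM, in replicate 2 mostly through sysm-1 and lys-2. The sum of intestine markers was 298.6, 1078 and 552.6 CPM with the yolk genes vit-2 and vit-6, and 73.9, 77.9 and 30.4 CPM without them. Of the 15 immune targets, 2 of them with no count, 8 were highest in replicate 2. The genes nlp-31, nlp-29, cnc-2 and irg-5 were highest in replicate 1, with nlp-31 at 5.85, 0.514 and 1.26 CPM. The sum of 10 epidermis markers was 1035, 156.6 and 293.5 CPM in replicates 1, 2 and 3. The part of intestinal or epidermal RNA in these values was not tested. The lowest were clec-71 and irg-6 with no count.

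The GLH genes and csn-5, whose products include the KGB-1 partners GLH-1 and CSN-5, were detected in 5 of 5 cases. Of protein-coding genes, 40.2% were detected. The helicase gene glh-1 had 1533, 1288 and 2231 CPM, glh-2 had 502.1 ± 73.1 and glh-4 had 163.8 ± 31 CPM, and glh-3 was the lowest at 41 ± 4.66 CPM (SD, n = 3). The signalosome gene csn-5 had 74.6, 75.3 and 73 CPM. Per length, kgb-1 at 1.71 CPM per kb lay below each of these genes, of which glh-3 was the lowest at 16.4 CPM per kb and csn-5 had 61.8 CPM per kb.

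**Figure D4:**
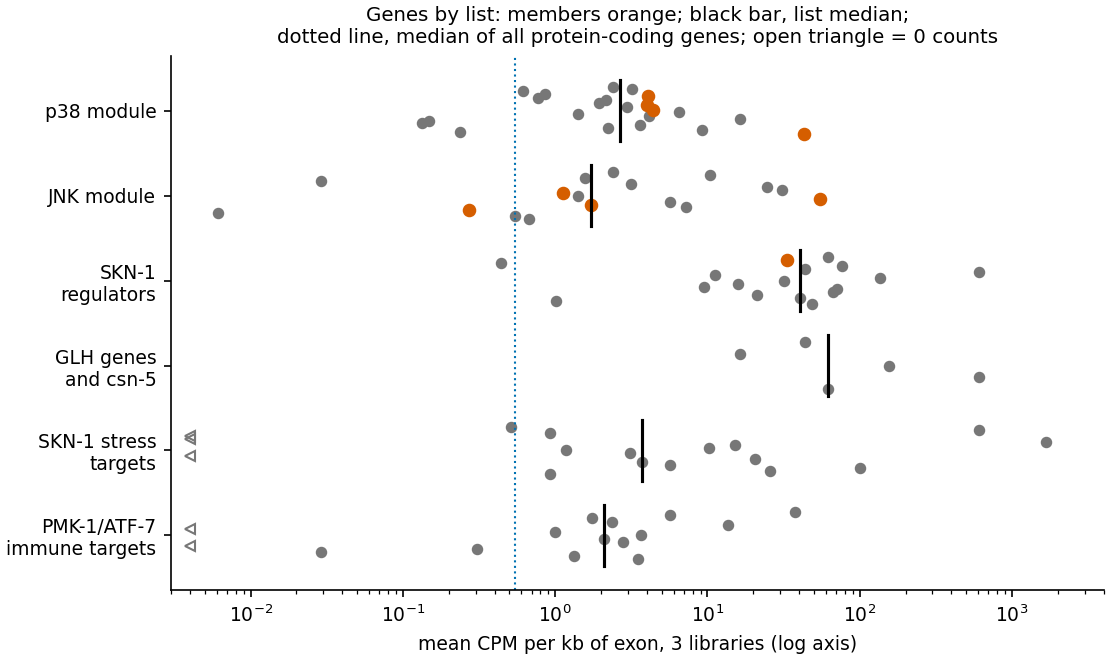
Mean level per length (CPM per kb of exon, log axis) of each gene of 6 lists, with the 10 genes where listed in orange, a black bar at each list median and a dotted line at the median of protein-coding genes, 0.548. The SKN-1 regulators, with a median of 40.5, lie to the right of the p38 list at 2.67 and the JNK list at 1.71, and open triangles at the left edge are genes with no count.

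The spread between libraries was small for most of the 10 genes. Over the 9 detected genes, the highest library exceeded the lowest by a median factor of 1.14, with a range of 1.03 to 1.35, against a median of 1.3 over detected protein-coding genes. For jnk-1 the factor was 1.97 on 7 to 12 reads. The part of sperm and somatic RNA in the levels of the 10 genes was not tested. No library was high or low throughout, as replicates 1, 2 and 3 were the highest for 4, 3 and 3 genes and the lowest for 3, 4 and 3 genes. The spread exceeded that of counting error by a median factor of 1.69 in the detected members, against 2.84 in detected protein-coding genes. Both measures vary with level. At a mean of at least 50 CPM, they were 1.14 and 2.53 in 4 members, against 1.2 and 4.21 in protein-coding genes. Under 50 CPM, they were 1.18 and 1.03 in 5 detected members, against 1.4 and 2.24 in detected protein-coding genes.

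**Figure D5:**
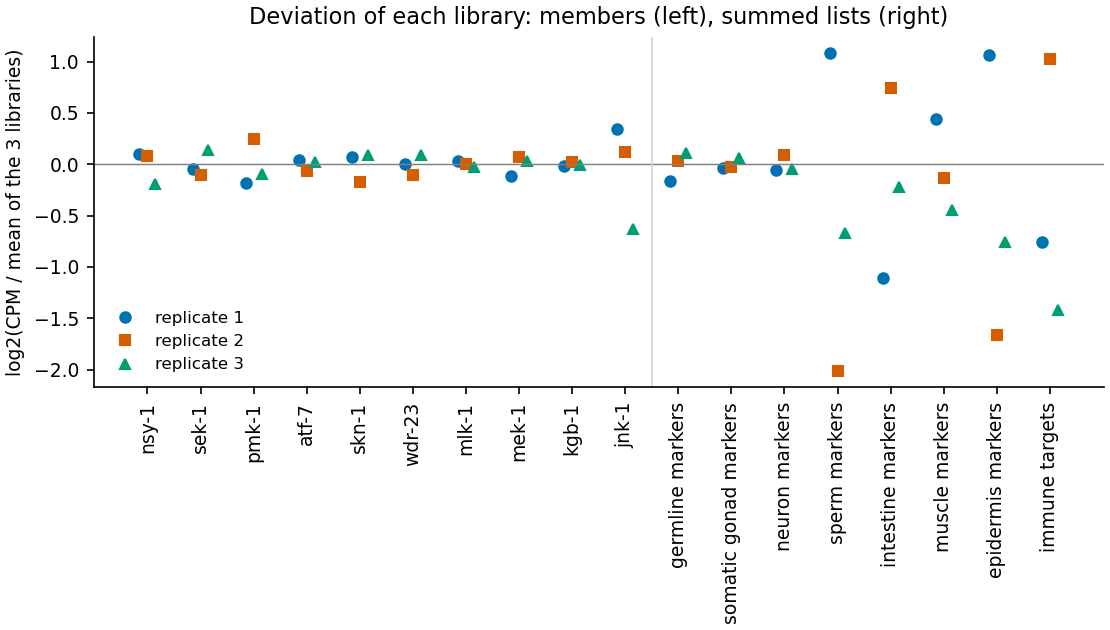
Deviation of each library from the mean of the 3 libraries, as log2 of the CPM ratio, for the 10 genes on the left and for summed marker and target lists on the right. The 9 detected genes have a highest-to-lowest factor of at most 1.35 and jnk-1 one of 1.97, and the sperm, epidermis, intestine and immune target sums span 8.61-fold, 6.61-fold, 3.61-fold and 5.43-fold.

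Exons of 5 of the 10 genes overlapped those of another protein-coding gene in the count table or the annotation by 33 to 97 bp, and jnk-1 by 4 bp. The 3′ neighbour of skn-1 on the other strand is csn-5, with 41 bp in common, or 1.39% of the skn-1 exons. For nsy-1 the opposite-strand gene was F33G12.2 (56 bp, 45.8 CPM), for sek-1 it was R03G5.6 (70 bp, 2.90 CPM) and for mlk-1 it was cwp-4 (97 bp, 0.312 CPM). The strand setting of the counting is not given in the sources used here, so reads in these overlaps cannot be told apart, and they cover at most 3.41% of the exons of a member. The same-strand genes C07G2.5 at atf-7 and F59A6.13 at nsy-1 are in the annotation but absent from the count table, so their levels are not known here.

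The protein-coding genes most like pmk-1 in log2(CPM + 1) over the 3 libraries were C05D9.7, F52H2.7 and Y49G5B.1, with root mean square differences of 0.045, 0.0475 and 0.07. Those most like skn-1 were zbp-1, rpc-1 and hrp-2, with differences of 0.0388, 0.0391 and 0.0405. As 14 and 36 genes lay within 0.1 of pmk-1 and skn-1, this likeness over 3 libraries is not particular to the genes named.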

How the data were processed

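Libraries of germline RNA were made with the SMART-Seq v4 kit for very small inputs, per the labels' protocols. The deposited table holds raw read counts per gene. STAR, featureCounts and the build WBcel235 are named in the submitters' processing notes. Not given in the sources used here are versions, annotation release, strand setting and how multi-mapping reads were handled.

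CPM were computed on each library's total (14523486 to 16656171 counts). Exon lengths (union of exons) and positions came from Ensembl release 115 of WBcel235, with 20116 of 20362 protein-coding genes matched. Of 176 distinct listed genes, 168 matched by table symbol and 8 by current symbol, among them jun-1, which the table holds in the form of a date, like 11 symbols in all. Scripts used Python 3.11.15 and R 4.3.3 and were tested on simulated data. Spread beyond counting error is the square root of chi-square per degree of freedom. Alternatives were edgeR 4.0.16 TMM, DESeq2 1.42.0 size factors, the protein-coding total, the longest transcript, other detection rules and each library left out. No columns of other series were present.

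Members and lists were chosen with earlier results of these data known. Genes named were all members, all kinase tier genes, of the other lists the 3 highest and the lowest by mean CPM, the 3 nearest in level to pmk-1 and skn-1, and genes overlapping a member. Further listed genes were named after their values were seen.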

Additional observations from a re-analysis of the deposited data

How the results depend on the processing

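No paired analysis was possible because the samples form 1 group. The number of detected members was 9 under every scaling, with each library left out, at 0.5 CPM, with at least 10 reads and in 2 of 3 libraries. It was 7 at 5 CPM and 5 at 10 CPM, where fewer genes can pass. For the rules of at least 10 reads and of 2 of 3 libraries, no share of protein-coding genes is given. The 70 listed pathway genes detected, 68.6% of the distinct pathway genes listed, became 77 at 0.5, 51 at 5 and 42 at 10 CPM. Of protein-coding genes, 40.2% passed at 1 CPM, 45% at 0.5, 30.4% at 5 and 26.6% at 10 CPM. The median of the member levels, 15.2 CPM, was 14.9 to 15.7 with a library left out, 15.3 with TMM or DESeq2 factors and 16.5 on the protein-coding total, which moved the median detected gene by 0.11 on the log2 scale. The number of neighbour pairs per kb whose ranges did not overlap was 6 of 9 under each scaling and with the longest transcript. It was 6 to 7 with a library left out, where ranges cannot widen. The pairs were not all the same, as the order of nsy-1, sek-1 and pmk-1 changed: under each other scaling 5 of the 6 were shared, and 4 without replicate 1. The share of pmk-1 among p38 kinases, 49.4%, was 47.5 to 50.8% with a library left out. The median library factor of the members, 1.14, was 1.06 to 1.14 with a library left out, a check chosen after seeing the data. This factor could only stay or fall, because fewer libraries cannot span a wider range. Depth limits jnk-1, kgb-1 and mlk-1, with 30, 130 and 189 reads in all.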
